A study of Mus musculus with 12 samples.

Results

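The cathepsins described here are 10 lysosomal, endosomal or secreted proteases, encoded by Ctsa, Ctsb, Ctsc, Ctsd, Ctse, Ctsh, Ctsk, Ctsl, Ctss and Ctsz. They were chosen by gene name, as the array transcript clusters annotated with exactly 1 of these symbols, and each gene had 1 such cluster among the 23410 clusters with a gene symbol and the 35556 clusters in all. The study asked how loss of the transcription factor Fra-1, encoded by Fosl1, alters lung gene expression during the early injury caused by bleomycin, a drug used to induce lung fibrosis in mice. RNA from the left lung of 12 mice on a mixed C57/129S background was hybridised to 1 Affymetrix MoGene 1.0ST v1 array per mouse, 5 days after instillation into the trachea. The 4 groups of 3 mice were Fra-1-/- mice given 0.075 U of bleomycin in 30 µL of PBS (KOT), Fra-1-/- mice given PBS alone (KOC), Fra-1+/+ mice given the same dose of bleomycin (WTT) and Fra-1+/+ mice given PBS alone (WTC). Both genotypes carried floxed Fra-1 alleles, and the Fra-1-/- mice also carried a Meox2 (Sox2)-Cre that deletes them in the embryo, not in one cell type of the lung, while the Fra-1+/+ mice had no Cre. The labels give an age of 2 months for all groups, and the study's methods give somewhat older mice.

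Most cathepsins are made as inactive precursors, are carried to the acidic lysosome by mannose 6-phosphate receptors, and are activated there by removal of a propeptide. Macrophages are a rich source of them, and cathepsins released by injured or inflamed lung can cut collagen, elastin and other matrix proteins outside the cell. Their activity is held in check by cystatins and related inhibitors. Fra-1 is a member of the AP-1 family, which binds the sequence TGACTCA, and many lysosomal genes carry the sequence CACGTG, which is bound by the lysosomal regulator TFEB and its relatives.

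All values below are levels on a log2 scale after robust multi-array averaging (RMA), so that a difference of 1 is a doubling. The medians of the 12 arrays lay between 7.14 and 7.22, and each array correlated with the others of its group at a mean r of 0.990 to 0.994. Fosl1 itself measured 7.33, 7.32 and 7.28 in the KOT mice, 6.68, 6.26 and 6.56 in KOC, 7.81, 8.19 and 8.32 in WTT, and 6.37, 6.76 and 6.86 in WTC. The KOT mice lay below the WTT mice without overlap, by 0.80 (SE 0.15, adjusted p = 0.16 in limma), and the PBS groups overlapped. With bleomycin the Fosl1 level rose by 0.81 in Fra-1-/- mice (SE 0.15, adjusted p = 0.00544 in limma). In Fra-1+/+ mice it rose by 1.44 (SE 0.15, adjusted p = 0.000233 in limma). Where the probes of that cluster lie relative to the floxed part of the gene is not given in the sources used here. None of the 12 arrays matched the female sex of its label, with Xist between 4.47 and 4.94 and the Y-linked Eif2s3y between 8.52 and 8.93. As a check of the tissue, the mean level of 11 alveolar type 2 cell markers lay between 11.51 and 12.43 in all 12 mice.

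The promoters were searched because Fra-1 acts through AP-1 sites. The promoter table of RefSeq (build GRCm38.p6), which covers 250 bases before to 50 bases after each start, held 8 windows for 7 of the 10 genes, those of Ctsa (with 2 starts), Ctsc, Ctsd, Ctsk, Ctsl, Ctss and Ctsz. The AP-1 sequence TGACTCA, searched on both strands (as TGACTCA and TGAGTCA), was found in 0 of these 8 windows, and 5.2% of all 32851 windows in the table held it. With so few windows and so rare a sequence, finding none says little about whether Fra-1 acts on these genes. The sequence CACGTG, which reads the same on both strands, was found in 1 window each of 3 genes, Ctsa, Ctsd and Ctsl, against 7.15% of all windows. Ctsd and the second start of Ctsa had 2 copies each and Ctsl had 1. The bases before the start of Ctsd are shown whole because they hold both of its copies (capitals), and those of Ctss because it had the largest response to bleomycin among the genes that passed the test, and hold neither sequence. The shorter stretches show the copy in Ctsl and, of the copies in Ctsa, the one before the start, at position -12. The other Ctsa copy lies at position 6 after the start and is not shown. All are written 5′ to 3′ on the strand of the gene, and a match is a run of letters, not a measured binding site.
Ctsd, chr7:142387828-142388077, minus strand: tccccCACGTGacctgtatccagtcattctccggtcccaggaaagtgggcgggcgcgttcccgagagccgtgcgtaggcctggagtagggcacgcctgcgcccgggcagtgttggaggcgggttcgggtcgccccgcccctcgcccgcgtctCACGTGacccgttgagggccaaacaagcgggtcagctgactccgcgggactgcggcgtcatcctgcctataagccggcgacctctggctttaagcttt
Ctss, chr3:95526536-95526785, plus strand: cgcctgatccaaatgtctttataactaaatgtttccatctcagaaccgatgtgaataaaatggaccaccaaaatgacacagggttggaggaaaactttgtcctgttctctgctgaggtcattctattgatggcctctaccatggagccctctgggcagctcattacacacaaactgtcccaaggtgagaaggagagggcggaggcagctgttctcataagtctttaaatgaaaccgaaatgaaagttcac
Ctsl, chr13:64370734-64370770, minus strand: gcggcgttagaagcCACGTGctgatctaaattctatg
Ctsa, chr2:164833744-164833772, plus strand: aacaatgagcaaactgtCACGTGatgcag

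Bleomycin raised the same number of cathepsins in both genotypes. In limma, which compares group means with a variance moderated over all clusters and adjusts p over the 23410 clusters by Benjamini-Hochberg, 8 of 10 were higher in KOT than in KOC mice and 8 of 10 were higher in WTT than in WTC mice at an adjusted p under 0.05, and none was lower. Over all clusters tested, 7.42% were called higher in the Fra-1-/- comparison and 10.2% in the Fra-1+/+ comparison. Called lower were 1868 of the 23410 clusters in the Fra-1-/- comparison and 2641 in the Fra-1+/+ comparison. The cathepsins called were the same 8 in both, Ctsa, Ctsb, Ctsc, Ctsd, Ctsh, Ctsk, Ctss and Ctsz, while Ctsl and Ctse did not pass in either. The median log2 difference of the 10 cathepsins was 0.64 in Fra-1-/- mice and 0.67 in Fra-1+/+ mice, against medians of 0.017 and 0.020 over all clusters. Every bleomycin mouse lay above every PBS mouse for 8 of 10 cathepsins in each genotype, a pattern shown by 18.8% of all clusters in Fra-1-/- mice and 18.3% in Fra-1+/+ mice. In whole lung RNA, more cells that express a gene and more RNA per cell cannot be told apart.

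**Figure D1:**
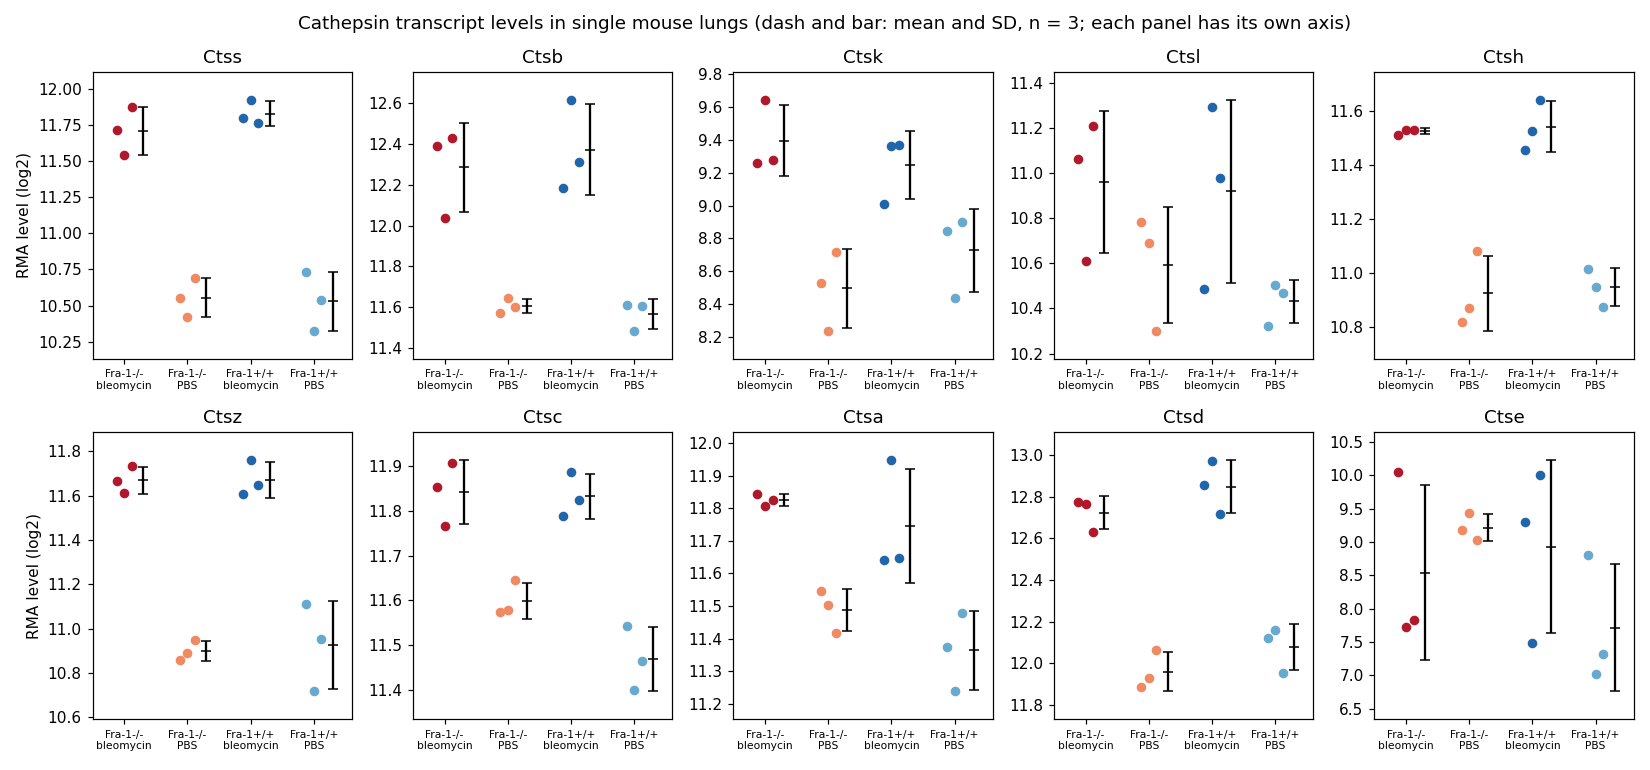
RMA level (log2) of the 10 cathepsins in each of the 12 mice, 1 point per mouse, in KOT, KOC, WTT and WTC from left to right, with the mean and SD of 3 mice beside the points and an axis of its own for each gene. In 8 panels all bleomycin mice lie above all PBS mice of their genotype, in the Ctsl panel 1 bleomycin mouse of each genotype falls among the PBS mice, and the Ctse panel spans the widest range, between 7.02 and 10.05.

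Of the cysteine endopeptidases, Ctss responded most. It encodes cathepsin S, a protease of macrophages and other antigen-presenting cells that trims the invariant chain of MHC class II and stays active at neutral pH. Its level was 11.71, 11.54 and 11.87 in the KOT mice and 10.55, 10.42 and 10.69 in the KOC mice. It was 11.80, 11.93 and 11.76 in the WTT mice and 10.73, 10.32 and 10.54 in the WTC mice. The lowest bleomycin mouse was well above the highest PBS mouse in both genotypes, and the groups did not overlap. The log2 difference was 1.15 in Fra-1-/- mice (SE 0.12, adjusted p = 0.00042) and 1.30 in Fra-1+/+ mice (SE 0.12, adjusted p = 0.000108), and only 1.36% and 1.35% of all clusters differed by as much.

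Ctsb, cathepsin B, which can act as an endopeptidase and also removes dipeptides from the carboxyl end of its substrates, followed the same course with a smaller step. Its levels were 12.39, 12.04 and 12.43 in KOT mice, against 11.57, 11.64 and 11.60 in KOC mice. They were 12.19, 12.62 and 12.31 in WTT mice, against 11.61, 11.48 and 11.60 in WTC mice. The PBS mice of both genotypes lay close together, between 11.48 and 11.64, and the bleomycin mice spread more widely above them. The differences were 0.68 in Fra-1-/- mice (SE 0.12, adjusted p = 0.00399) and 0.81 in Fra-1+/+ mice (SE 0.12, adjusted p = 0.00121).

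Ctsk, cathepsin K, the collagen-degrading protease best known from osteoclasts, had its larger estimate in Fra-1-/- mice. The KOT mice had 9.26, 9.65 and 9.28, against 8.53, 8.24 and 8.72 in KOC. The WTT mice had 9.01, 9.36 and 9.37, against 8.84, 8.44 and 8.90 in WTC. The gap between the WTT mouse nearest to PBS and the highest WTC mouse was small. The log2 difference was 0.90 in Fra-1-/- mice (SE 0.17, adjusted p = 0.00456) and 0.52 in Fra-1+/+ mice (SE 0.17, adjusted p = 0.0442). The Fra-1+/+ call was lost, with adjusted p between 0.0506 and 0.167 and differences between 0.37 and 0.61, when any 1 of 8 mice was left out (WTC 76, 157 or 158, WTT 161 or 164, KOC 53, KOT 72 or 81). The difference between the responses of the genotypes did not pass (0.38, SE 0.23, adjusted p = 0.963).

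Ctsl, cathepsin L, a broad endopeptidase of lysosomes that is also secreted, did not pass. Its levels were 11.06, 10.61 and 11.21 in KOT mice, against 10.79, 10.69 and 10.30 in KOC mice. They were 10.49, 11.29 and 10.98 in WTT mice, against 10.32, 10.50 and 10.47 in WTC mice. In each genotype 2 bleomycin mice were above every PBS mouse and the remaining one, KOT 80 or WTT 160, was not. The Fra-1-/- difference was 0.37 (SE 0.20, adjusted p = 0.268) and the Fra-1+/+ difference 0.49 (SE 0.20, adjusted p = 0.117). With 1 mouse left out the Fra-1+/+ value ran from 0.30 without WTT 161 (adjusted p = 0.368) to 0.70 without WTT 160 (adjusted p = 0.0218). Ctsl passed in 0 of 22 alternatives in Fra-1-/- mice and in 2 of 22 in Fra-1+/+ mice.

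The exopeptidases all passed. Ctsh, cathepsin H, is an aminopeptidase that takes part in the maturation of surfactant proteins B and C in alveolar type 2 cells. Its level was nearly constant among the KOT mice, at 11.51, 11.53 and 11.53, against 10.82, 10.87 and 11.08 in KOC mice. WTT mice had 11.46, 11.53 and 11.64, against 11.02, 10.95 and 10.87 in WTC mice. The groups were apart by more than their own spread, and the differences were nearly equal, 0.60 in Fra-1-/- mice (SE 0.08, adjusted p = 0.00126) and 0.60 in Fra-1+/+ mice (SE 0.08, adjusted p = 0.000804). Over the same mice the type 2 cell markers were lower with bleomycin, with 7 of 11 called lower in Fra-1-/- and 8 of 11 in Fra-1+/+ mice. Their mean level was 11.64 to 12.11 in KOT, 12.35 to 12.43 in KOC, 11.51 to 11.94 in WTT and 12.24 to 12.26 in WTC, and the part of these cells in the Ctsh result was not tested.

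Ctsz, cathepsin Z (also called X), a carboxypeptidase of monocytes and macrophages, measured 11.66, 11.61 and 11.73 in KOT mice and 10.86, 10.89 and 10.95 in KOC mice. It measured 11.61, 11.76 and 11.65 in WTT mice and 11.11, 10.72 and 10.95 in WTC mice. The bleomycin mice of both genotypes lay between 11.61 and 11.76, and all were above the PBS mice. The differences were 0.77 in Fra-1-/- mice (SE 0.09, adjusted p = 0.000742) and 0.74 in Fra-1+/+ mice (SE 0.09, adjusted p = 0.000552).

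Ctsc, cathepsin C, is the dipeptidyl peptidase that activates many of the serine proteases of neutrophil, mast cell and cytotoxic granules. It had a small response, with 11.86, 11.77 and 11.91 in KOT mice against 11.57, 11.58 and 11.65 in KOC mice. WTT mice had 11.79, 11.89 and 11.83, against 11.54, 11.40 and 11.46 in WTC mice. The SD within groups was small, at 0.060, and 95.5% of all clusters had a larger one, and the groups did not overlap. The difference was 0.24 in Fra-1-/- mice (SE 0.07, adjusted p = 0.0328) and 0.36 in Fra-1+/+ mice (SE 0.07, adjusted p = 0.00354). The Fra-1-/- call was lost, with adjusted p between 0.103 and 0.133, when KOC 53, KOC 55, KOT 72 or KOT 81 was left out. Of 12 granule serine proteases measured, none was called higher in either genotype. Gzma, granzyme A of cytotoxic lymphocytes, was the only 1 called lower, in Fra-1+/+ mice (-0.76, SE 0.21, adjusted p = 0.0239). Its value was -0.66 in Fra-1-/- mice (adjusted p = 0.0552). Several of these proteases were low on the array, such as Gzmc, Mcpt4 and Mcpt8, with group means of 4.52 to 5.03.

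Ctsa, the serine carboxypeptidase that protects beta-galactosidase and neuraminidase in the lysosome, also had a small response. Its levels were 11.84, 11.81 and 11.83 in KOT mice, against 11.55, 11.50 and 11.42 in KOC mice. They were 11.64, 11.95 and 11.65 in WTT mice, against 11.37, 11.24 and 11.48 in WTC mice. The KOT mice lay within 0.04 of each other, while WTT 161 stood above the other WTT mice. The difference was 0.34 in Fra-1-/- mice (SE 0.09, adjusted p = 0.0311) and 0.38 in Fra-1+/+ mice (SE 0.09, adjusted p = 0.0135). The Fra-1-/- call was lost when any 1 of its own 6 mice was left out (adjusted p between 0.0521 and 0.1), and the Fra-1+/+ call when WTC 157 was (adjusted p = 0.0591).

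Of the aspartic proteases, Ctsd, cathepsin D, the main aspartic protease of the lysosome, rose in both genotypes. Its levels were 12.78, 12.76 and 12.63 in KOT mice, against 11.89, 11.93 and 12.07 in KOC mice. They were 12.86, 12.97 and 12.72 in WTT mice, against 12.12, 12.16 and 11.95 in WTC mice. No bleomycin mouse came near a PBS mouse. The differences were 0.76 in Fra-1-/- mice (SE 0.09, adjusted p = 0.000672) and 0.77 in Fra-1+/+ mice (SE 0.09, adjusted p = 0.000368).

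**Figure D2:**
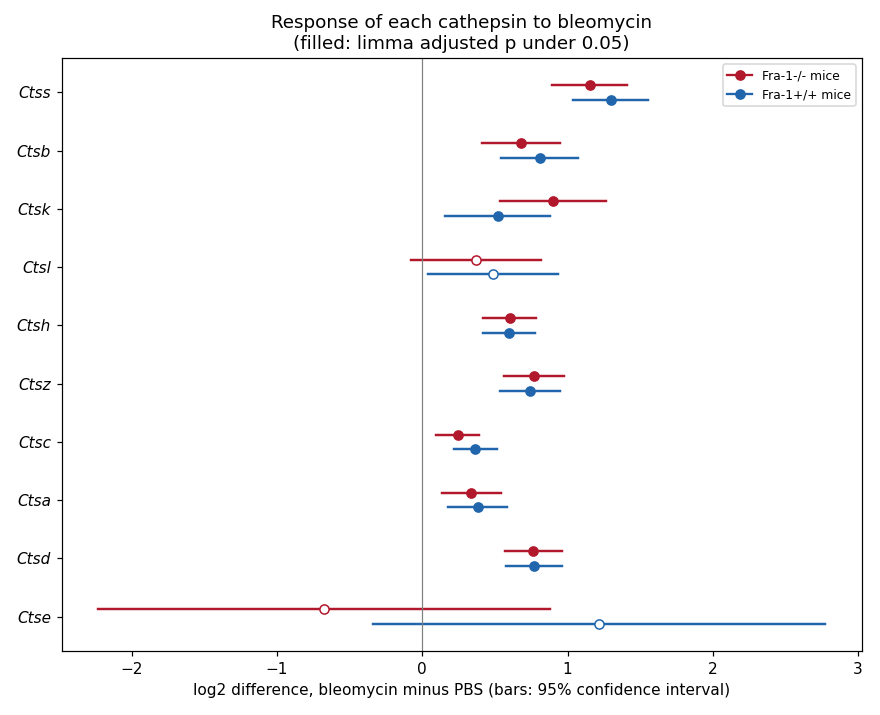
Difference in RMA level (log2, bleomycin minus PBS) of each cathepsin with its 95% confidence interval, Fra-1-/- mice above Fra-1+/+ mice for each gene, filled where the limma adjusted p was under 0.05. The intervals of the 8 called genes lie above 0 in both genotypes, between 0.24 for Ctsc and 1.30 for Ctss in their estimates, and the Ctse intervals span 0 in both.

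Ctse, cathepsin E, is an aspartic protease of endosomes rather than lysosomes, found in stomach epithelium and in cells of the immune system. Its level spread more widely among mice than that of the other 9. The KOT mice had 10.05, 7.72 and 7.83, and the KOC mice 9.17, 9.43 and 9.03. The WTT mice had 9.30, 7.49 and 10.01, and the WTC mice 8.80, 7.02 and 7.32. The range between the mice of a group was 2.33 in KOT, 0.40 in KOC, 2.52 in WTT and 1.78 in WTC, so that high and low mice occurred in every group but KOC. The SD within groups was 1.04, against a median of 0.13 over all clusters, and 0.141% of clusters had a larger one.

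With this spread no Ctse difference passed in limma. Bleomycin minus PBS was -0.68 in Fra-1-/- mice (SE 0.71, adjusted p = 0.591) and 1.22 in Fra-1+/+ mice (SE 0.71, adjusted p = 0.262), with overlap of the mice in both. Leaving out 1 mouse gave -1.43 (without KOT 72) to -0.27 (without KOT 80) in Fra-1-/- mice and 0.68 (without WTT 164) to 1.94 (without WTT 161) in Fra-1+/+ mice. The largest difference was between the PBS groups, where KOC was higher than WTC by 1.50 (SE 0.71, 95% confidence interval -0.056 to 3.05, unadjusted p = 0.0575, adjusted p = 0.524) and every KOC mouse was above every WTC mouse. Fra-1-/- minus Fra-1+/+ under bleomycin was -0.40 (SE 0.71, adjusted p = 0.881), and it was 0.14 without WTT 164 and 0.011 without KOT 80. Between the genotypes, the Ctse responses to bleomycin were -1.89 apart (SE 1.01, adjusted p = 0.963), which did not pass either.

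The local-pooled-error test (LPE) named in the study's methods treats Ctse differently. It compares group medians, and takes the variance from clusters of like intensity rather than from the cluster itself. At an adjusted p under 0.01, it called Ctse in all 4 comparisons of groups. The difference of medians was -1.34 for KOT against KOC (adjusted p = 4.64e-11) and 1.98 for WTT against WTC (adjusted p = 1.96e-18). It was -1.46 for KOT against WTT (adjusted p = 1.71e-10) and 1.85 for KOC against WTC (adjusted p = 2.6e-18). In 3 of these 4 comparisons the single mice of the groups overlap, and the exception is KOC against WTC. Of the other 9 cathepsins the LPE test called 6 higher in KOT than in KOC mice (Ctsb, Ctsd, Ctsh, Ctsk, Ctss and Ctsz) and 4 higher in WTT than in WTC mice (Ctsb, Ctsd, Ctss and Ctsz). Over all clusters it called 8.08% in either direction for KOT against KOC and 7.92% for WTT against WTC. It called none of these 9 between genotypes, where it called 0.705% of all clusters under bleomycin and 1.79% under PBS.

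The other 9 cathepsins differed little between genotypes. Under bleomycin the log2 difference of KOT from WTT mice ran from -0.13 for Ctsd to 0.15 for Ctsk, and the 95% confidence intervals lay within -0.41 and 0.51. Under PBS the difference of KOC from WTC mice ran from -0.23 for Ctsk to 0.16 for Ctsl, with intervals within -0.60 and 0.61. None of the 10 passed in either comparison or in the difference between the responses, and none had an unadjusted p under 0.05. Over all clusters limma called 0.0427% between the bleomycin groups, 0.0128% between the PBS groups and 0% for the difference between the responses. The difference between the responses ran from -0.14 for Ctss to 0.38 for Ctsk, with intervals within -0.75 and 0.89. These limits are the outermost over the 9 genes, and the SE of the group comparisons ran from 0.07 for Ctsc to 0.20 for Ctsl. With 3 mice a group, a difference inside a gene's own interval was not excluded, and the tests do not show that the genotypes are alike.

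By single mice, the genotypes were apart for 0 of 10 cathepsins under bleomycin, where 15.7% of all clusters were apart in either direction. Under PBS 2 of 10 were apart, Ctse and Ctsc, where 16.3% of all clusters were. The Ctsc difference was 0.13 (SE 0.07, adjusted p = 0.574), with 11.57, 11.58 and 11.65 in KOC mice against 11.54, 11.40 and 11.46 in WTC mice. The animal numbers were under 100 in all Fra-1-/- mice and in 1 Fra-1+/+ mouse, WTC 76, and what the numbers stand for is not given. With a term for number, which ties the genotype comparison to that mouse, the Ctse difference was -2.02 under bleomycin and 0.41 under PBS. Of the other 9, Ctss then had the largest difference under bleomycin, 0.42 in size, and none passed.

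**Figure D3:**
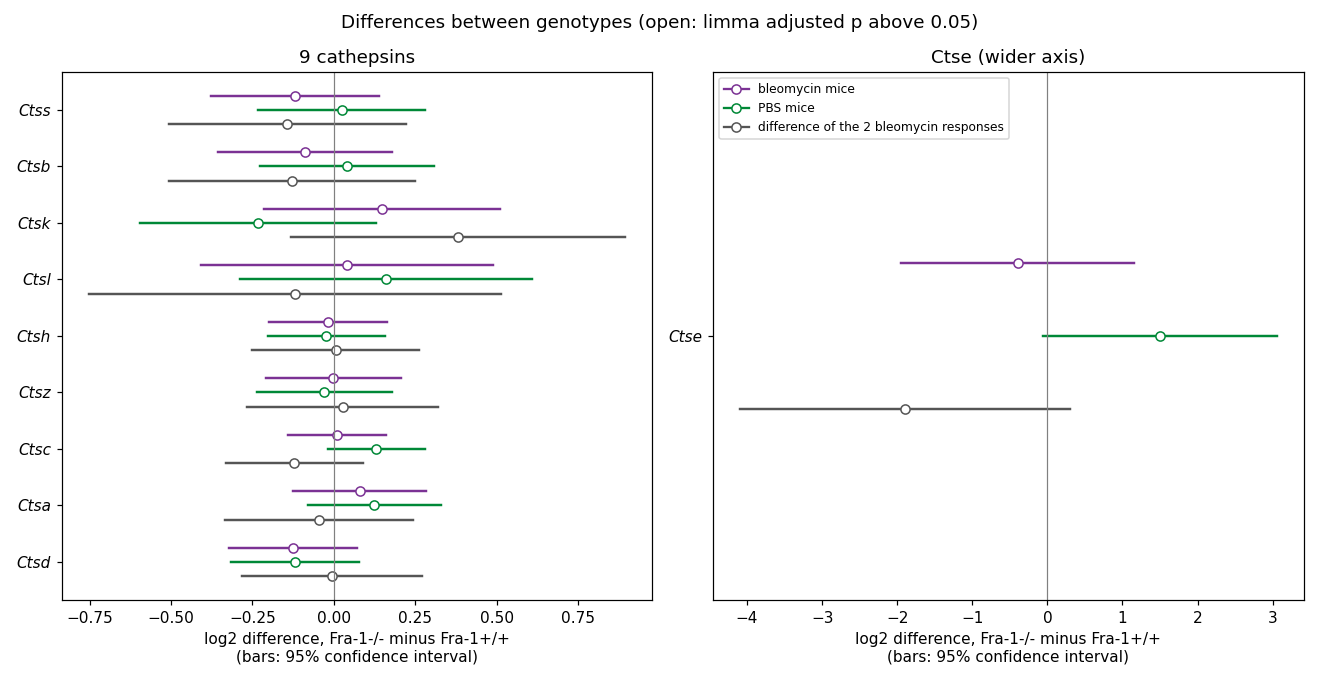
Difference in RMA level (log2, Fra-1-/- minus Fra-1+/+) with its 95% confidence interval under bleomycin, under PBS, and between the bleomycin responses of the genotypes, for 9 cathepsins on the left and Ctse on a wider axis on the right. All points are open because none had an adjusted p under 0.05, and every interval crosses 0, with the Ctse interval under PBS reaching -0.056.

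Pairs of cathepsins differed in how closely they varied together among mice of the same group, after the group means were removed. These correlations are descriptions over the same 12 arrays. Ctsc, Ctss and Ctsz moved together, with r of 0.93 for Ctsc and Ctss, 0.88 for Ctsc and Ctsz and 0.87 for Ctss and Ctsz. Ctsb ran with Ctsc (0.79) and with Ctsl (0.78), while Ctsl and Ctss had little in common (0.15). Ctsd stood apart, with r between -0.21 and 0.28 to every other cathepsin, although its response to bleomycin was as large as that of Ctsz. Ctse also ran with none, at -0.35 to 0.18. Of the pairs on the same chromosome, Ctsa and Ctsz on chromosome 2 correlated at 0.53, Ctsk and Ctss on chromosome 3 at 0.35, and Ctsc and Ctsd on chromosome 7 at 0.10.

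**Figure D4:**
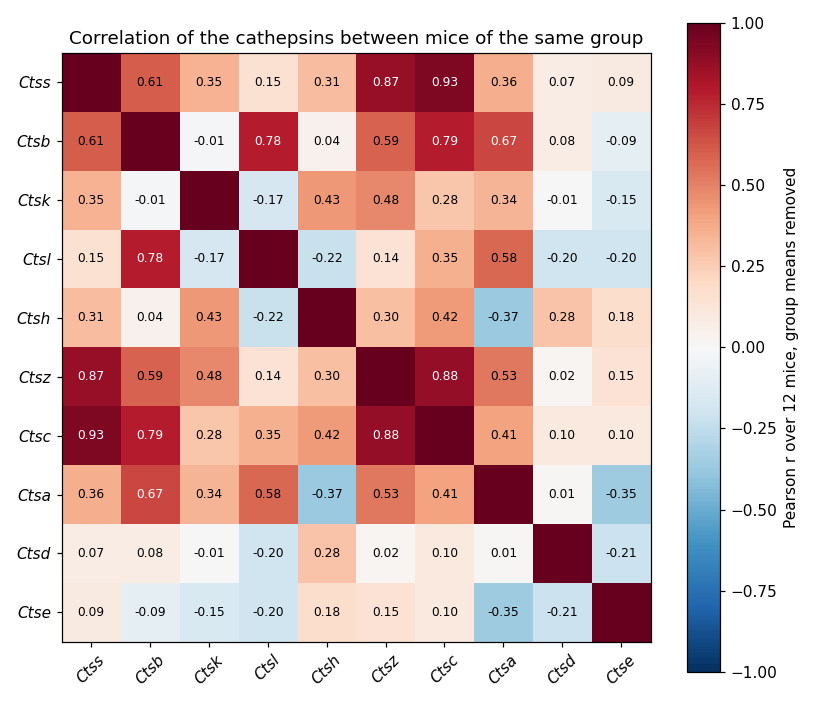
Pearson r between pairs of cathepsins over 12 mice after the mean of each group was removed, with red for positive and blue for negative values. Ctss, Ctsz and Ctsc form a block of 0.87 to 0.93, Ctsb joins it through Ctsc and also runs with Ctsl, and the Ctsd and Ctse rows are pale except for the value of -0.35 between Ctse and Ctsa.

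Across all 21789 clusters with 1 symbol, the genes whose levels ran most like each cathepsin were found by Pearson r over the 12 arrays, which takes in any shared difference between the 4 groups. Ctsb was closest to Grn, which encodes the lysosomal glycoprotein progranulin (r = 0.995), and to Lgmn, which encodes legumain, an asparaginyl protease that processes cathepsins (r = 0.993). Ctss was closest to S100a4, a calcium-binding protein gene of macrophages and fibroblasts (0.993), Slc36a1, a lysosomal amino acid transporter gene (0.992), and Ctsz (0.99). Ctsz was closest to Fscn1 (0.991), which encodes the actin-bundling protein fascin. Ctsk was closest to Mmp12, the elastase gene of macrophages (0.96), and Ctsl to Sdc3 (0.962), a syndecan gene. Ctsc was closest to Pcna (0.982), the sliding clamp gene of DNA replication, Ctsh to Slc7a5 (0.987), a gene of large neutral amino acid transport, Ctsd to Rap2b (0.98), a small GTPase gene, and Ctsa to Mastl (0.979), a mitotic kinase gene.

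For Ctse the closest cluster was Gpr39, a zinc-sensing receptor gene, at a lower r of 0.878, followed by Rspry1 (0.848) and Zswim1 (0.835). Gpr39 measured 7.49, 7.34 and 7.31 in KOT mice, 7.69, 7.64 and 7.48 in KOC, 7.51, 7.17 and 7.67 in WTT, and 7.32, 7.16 and 7.19 in WTC. It was thus high in the KOC mice and in the WTT mice with high Ctse, on a range far smaller than that of Ctse. In KOT 72, the mouse with the highest Ctse (10.05), Gpr39 was 7.49, the highest in KOT but below KOC 53 and KOC 55. Against the mean levels of 16 cell type marker lists, the r of Ctse over the 12 mice ran from -0.442 for erythroid cells to 0.305 for dendritic cells. With group means removed the range was wider, from -0.698 for erythroid cells to 0.614 for B cells, with 0.527 for NK and cytotoxic cells and 0.513 for dendritic cells. The part of these cells in the Ctse spread was not tested.

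The mean levels of the macrophage and of the fibroblast markers were higher with bleomycin, as were those of the 8 cathepsins, but single markers went both ways. Of 21 macrophage markers measured, 13 were called higher and 1 lower in KOT than in KOC mice, and 12 higher and 3 lower in WTT than in WTC mice. Their mean level was 9.94 to 10.20 in KOT, 9.26 to 9.33 in KOC, 9.95 to 10.36 in WTT and 9.22 to 9.42 in WTC. Cd68 rose by 1.07 in Fra-1-/- mice and 1.18 in Fra-1+/+ mice, Adgre1, the F4/80 antigen gene, by 1.13 and 1.40, and Csf1r, the receptor gene for macrophage colony-stimulating factor, by 0.57 and 0.59. The markers called lower, named after their values were seen, were Lyz2, a lysozyme gene (-0.28 in Fra-1-/- and -0.30 in Fra-1+/+ mice), and, in Fra-1+/+ mice only at this threshold, Pparg (-0.20 and -0.38) and Car4 (-0.57 and -0.76). Over the 12 mice the mean macrophage level correlated with the 9 cathepsins other than Ctse at r from 0.752 for Ctsl to 0.986 for Ctsb. With group means removed, it ran from 0.049 for Ctsd to 0.893 for Ctsb. With Ctse the r of the levels was 0.092.

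Of 13 fibroblast and myofibroblast markers 4 were called higher and 2 lower in Fra-1-/- mice, and 5 higher and 2 lower in Fra-1+/+ mice. Named after their values were seen, those higher in both genotypes were the matrix genes Col1a1, Col1a2, Col3a1 and Tnc. Lower in both were Tcf21 (-0.83 in Fra-1-/- and -0.90 in Fra-1+/+ mice) and Postn (-0.38 and -0.25), while Pdgfra and Pdgfrb passed in neither. The mean level of the 13 markers was 10.02 to 10.17 in KOT, 9.70 to 9.86 in KOC, 10.12 to 10.32 in WTT and 9.54 to 9.72 in WTC, without overlap of bleomycin and PBS mice. The r of this mean over the 12 mice ran from 0.701 for Ctsk to 0.958 for Ctsb and Ctsc among the 9 cathepsins, and was above that of the macrophage markers for Ctsa (0.913), Ctsc and Ctsl (0.779). With group means removed it ran from -0.163 for Ctsk to 0.799 for Ctsb. Of 12 neutrophil markers 1 was called higher in Fra-1-/- (8.33%) and 3 in Fra-1+/+ mice (25%), beside 7.42% and 10.2% of all clusters. Their mean level was 7.67 to 8.84 in KOT, 7.76 to 8.09 in KOC, 8.21 to 9.99 in WTT and 7.82 to 7.92 in WTC. Of 10 endothelial markers 9 were called lower in Fra-1-/- and 7 in Fra-1+/+ mice, beside 1868 and 2641 of all 23410 clusters. The r of the mean endothelial level over the 12 mice ran from -0.972 for Ctsz to -0.694 for Ctsl among the 9 cathepsins. Among 9 dendritic cell markers, 5 were called higher and 0 lower in Fra-1-/- mice, and 3 higher and 2 lower in Fra-1+/+ mice. The part of these cells in the cathepsin results was not tested.

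The wider lysosomal pathway changed in part. For the list counts that follow, 7.42% of all 23410 clusters were called higher in Fra-1-/- and 10.2% in Fra-1+/+ mice. Called lower were 1868 and 2641 clusters. Among 14 measured genes that process or sort lysosomal proteases, 4 were higher and 1 lower in KOT than in KOC mice, and 5 were higher and 1 lower in WTT than in WTC mice. Lgmn rose by 1.16 in Fra-1-/- mice (SE 0.17, adjusted p = 0.00148) and 1.47 in Fra-1+/+ mice (SE 0.17, adjusted p = 0.00034), with mean levels of 11.91 in KOT, 10.75 in KOC, 12.09 in WTT and 10.62 in WTC. Grn rose by 0.79 in Fra-1-/- and 0.85 in Fra-1+/+ mice, and Psap, the precursor gene of the saposins, by 0.44 and 0.46. Sort1, which encodes the sorting receptor sortilin, fell by 0.82 in Fra-1-/- mice and by 0.83 in Fra-1+/+ mice.

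The cystatins, their relatives and other cathepsin inhibitors mostly did not pass: 18 of 21 measured in each genotype. The shares called higher, 9.52% in Fra-1-/- and 14.3% in Fra-1+/+ mice, lay near those of all clusters, 7.42% and 10.2%. Many inhibitors were low on the array, such as Csta1, Cst12 and Cst9, with group means of 3.58 to 4.64. A low gene that did not pass says little about the inhibitors. Cstb, which encodes the intracellular inhibitor cystatin B, rose in both, by 0.77 in Fra-1-/- mice (SE 0.12, adjusted p = 0.00215) and by 0.99 in Fra-1+/+ mice (SE 0.12, adjusted p = 0.000478). Its mean level was 11.34 in KOT, 10.56 in KOC, 11.45 in WTT and 10.47 in WTC. Cst3, the gene of the secreted inhibitor cystatin C, had values of 0.021 in Fra-1-/- mice (adjusted p = 0.895) and -0.059 in Fra-1+/+ mice (adjusted p = 0.651), which did not pass. Cst7, cystatin F of immune cells, had values of 0.28 in Fra-1-/- and 0.075 in Fra-1+/+ mice that did not pass. Fetub, a fetuin gene of the cystatin superfamily, also rose in both, by 0.64 in Fra-1-/- and 0.37 in Fra-1+/+ mice. Kng1, kininogen, rose by 0.66 in Fra-1+/+ mice, and its value of 0.45 in Fra-1-/- mice did not pass (adjusted p = 0.0899). Kng1 was also low on the array, with group means of 5.12 to 5.91. Ctla2b, a gene related to cathepsin propeptides, fell by 0.61 in Fra-1-/- mice, and its value of -0.14 in Fra-1+/+ mice did not pass (adjusted p = 0.617). The difference between genotypes was not called for any of these genes.

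Of 32 other lysosomal hydrolases measured, 8 were higher and 1 lower in KOT than in KOC mice and 11 higher and 1 lower in WTT than in WTC mice. Gla, alpha-galactosidase A, rose by 0.93 in Fra-1-/- and 1.22 in Fra-1+/+ mice. Gusb, beta-glucuronidase, rose by 0.71 and 0.77, and Acp5, the tartrate-resistant acid phosphatase of osteoclasts and macrophages, by 0.90 and 0.71. Ids, iduronate sulfatase, fell by 0.54 in Fra-1-/- mice and by 0.72 in Fra-1+/+ mice.

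Of 22 lysosomal membrane and acidification genes, 4 were higher and none lower in KOT than in KOC mice, and 5 were higher and 1 lower in WTT than in WTC mice. Cd68, given above among the macrophage markers, belongs to this list too. Tcirg1, a proton pump subunit gene of osteoclasts and macrophages, rose by 0.91 and 0.86, Cd63, a tetraspanin gene, by 0.58 and 0.82, and Laptm5, a gene of blood cell lysosomes, by 0.50 and 0.41. Lamp1, the abundant membrane protein of lysosomes in all cells, had values of -0.053 in Fra-1-/- mice (adjusted p = 0.652) and 0.0097 in Fra-1+/+ mice (adjusted p = 0.938). Among 5 regulators of lysosomal genes none was called between KOT and KOC mice. Between WTT and WTC mice 2 were higher, Tfec at 0.72 (SE 0.17, adjusted p = 0.0131) and Mitf at 0.48 (SE 0.11, adjusted p = 0.012), while Tfeb (0.019), Tfe3 (0.50) and Zkscan3 (-0.16) did not pass. In Fra-1-/- mice Tfec had 0.55 (adjusted p = 0.0568), Mitf 0.22, Tfeb 0.13, Tfe3 -0.028 and Zkscan3 -0.16.

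Of 11 other genes of the cathepsin name measured none was called in either genotype, and their median difference was 0.068 in Fra-1-/- and 0.046 in Fra-1+/+ mice. Most of them were low on the array, such as Ctsq, Cts8 and Ctsj, with group means of 3.77 to 4.40. For such genes the count and the median say little. Ctso, Ctsf and Ctsw had higher levels. Ctso had means of 9.65 in KOT, 9.87 in KOC, 9.48 in WTT and 9.64 in WTC. Ctsf had 7.41, 7.76, 7.41 and 7.73 in the same order, and Ctsw 8.14, 7.63, 7.73 and 7.65. The bleomycin means of Ctso and Ctsf thus lay below the PBS means in both genotypes, and those of Ctsw above, without passing. Of 6 other aspartic proteases none was called in Fra-1-/- mice, and in Fra-1+/+ mice Asprv1, an aspartic protease gene of skin, was higher (1.41, SE 0.46, adjusted p = 0.0483) and Bace2, a relative of beta-secretase, lower (-0.35, SE 0.11, adjusted p = 0.034). In Fra-1-/- mice Asprv1 had 0.68 (adjusted p = 0.374) and Bace2 -0.34 (adjusted p = 0.0513). Napsa, napsin A of type 2 cells, had -0.32 in both genotypes (adjusted p = 0.102 in Fra-1-/- and 0.0835 in Fra-1+/+), and Pgc, Pga5 and Bace1 lay between -0.078 and 0.092.

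Of 12 measured genes for matrix proteins that cathepsins can cut outside the cell, 7 were called higher in KOT than in KOC mice. In WTT against WTC mice 10 were called higher, and none was lower in either genotype. Col1a1, Col1a2, Col3a1 and Dcn of this list are also among the fibroblast markers above, so these are not separate observations. Vcan, the proteoglycan versican, had 2.14 in Fra-1-/- and 2.66 in Fra-1+/+ mice, Fn1, fibronectin, 1.70 and 1.51, Col3a1, type III collagen, 0.92 and 1.48, and Eln, elastin, 0.91 and 1.76. Of the surfactant proteins whose precursors cathepsin H helps to cut, Sftpc was lower in Fra-1+/+ mice (-0.26, SE 0.08, adjusted p = 0.0365) with -0.25 in Fra-1-/- mice (adjusted p = 0.0502), and Sftpb had -0.11 in both, which did not pass. Sftpb, Sftpc and Napsa are also among the type 2 cell markers above. No gene of these pathway lists was called between genotypes or for the difference between the responses.

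**Figure D5:**
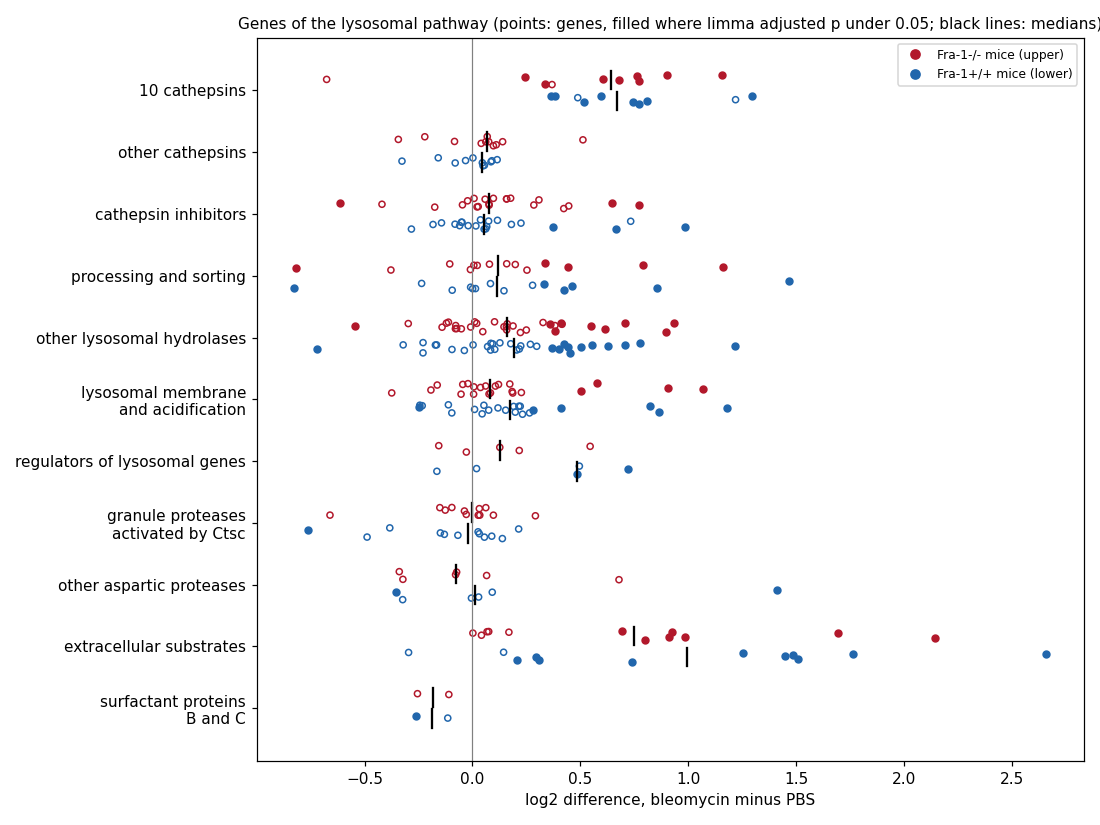
Difference in RMA level (log2, bleomycin minus PBS) of the 10 cathepsins and of each measured gene in 10 pathway lists, 1 point per gene, Fra-1-/- mice above Fra-1+/+ mice, filled where the limma adjusted p was under 0.05, with a black line at each median. The cathepsins and their matrix substrates have medians of 0.64 to 1.00, while the medians of the other lists lie between -0.19 and 0.48.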

How the data were processed

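Whole left lungs of 12 mice were profiled, 3 in each of 4 groups taken from the labels. The deposited values are on the log2 scale, and the authors made them from probe signals by quantile normalization over all samples and the RMA median polish per transcript cluster, run in Affymetrix Power Tools. The version of that tool and the genome build are not given in the sources used here. No further normalization was applied. With limma 3.58.1 in R 4.3.3, 1 model of 4 group means took in all 12 arrays (8 residual degrees of freedom, moderated variances), so the SE also holds the spread of the other groups. P-values are two-sided, adjusted over 23410 clusters, and passed under 0.05. They set the difference of group means against the spread between single mice, and 3 against 3 mice allow no exact p below 0.1. LPE was written anew with 100 intensity bins. The scripts were tested on simulated data. The bleomycin and genotype comparisons share mice, since each group enters both. The cathepsins, gene lists and tests were chosen with earlier results of these data known. From lists of 8 or more measured genes, the 4 with the largest difference in Fra-1+/+ mice among those called in either genotype were named, plus Lgmn, Cst3, Cstb, Cst7, Lamp1 and Cd68, and shorter lists were named whole. Genes of like pattern were those with the highest r over 12 arrays. Symbols without a cluster of their own were not used. Array precision is limited by the number of mice. Alternatives were other normalizations, filters, tests, thresholds, a term for animal number and leaving out each mouse.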

Additional observations from a re-analysis of the deposited data

How the results depend on the processing

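The count of 8 cathepsins called in KOT against KOC mice was between 6 and 8 under all 22 alternatives, among them 7 with LPE (6 higher, and Ctse lower), and between 6 and 8 when 1 mouse was left out. In WTT against WTC mice it was 5 with LPE and between 6 (without WTC 157) and 9 (without WTT 160) when 1 mouse was left out. None of the 396 alternative values of the bleomycin differences of the 9 cathepsins other than Ctse had the other sign. Ctsb, Ctsd, Ctss and Ctsz passed in all 22 alternatives in both genotypes, and Ctsk passed in 9 of 22 in Fra-1+/+ mice. LPE called 1 cathepsin, Ctse, in KOT against WTT mice and 1, also Ctse, in KOC against WTC mice, where limma called 0. With array weights the Ctse difference was 0.020 for KOT against KOC and 0.52 for KOT against WTT, with the sign turned in both. It was also turned for KOT against WTT without WTT 164 (0.14) or KOT 80 (0.011), in a range of -1.15 to 0.14 over the mice left out. For Ctsk, KOT against WTT was -0.082 with LPE and -0.026 with the term for animal number. Over the 9 cathepsins other than Ctse, 18 of 198 alternative values had the other sign in KOT against WTT, 13 of 198 in KOC against WTC and 23 of 180 in the difference between the responses, and 0 passed. The causes were not tested. The total of pathway list genes called, examined after the data were seen, was 43 in WTT against WTC mice, against 19 with LPE, 24 at an adjusted p under 0.01 and 28 to 46 with 1 mouse left out (28 without WTT 161). In KOT against KOC mice it was 28, against 49 with array weights and 23 to 31 with 1 mouse left out. Of the named pathway genes called, 12 of 19 in Fra-1-/- mice passed in every alternative and 14 of 25 in Fra-1+/+ mice did, and the sign turned for none of them. Leaving out 1 mouse ended the call of Ctla2b, Acp5, Cd63, Laptm5 and Eln in Fra-1-/- mice and of Kng1, Acp5, Laptm5, Tfec, Mitf, Gzma, Bace2, Asprv1 and Sftpc in Fra-1+/+ mice. No member had several clusters, so no other cluster could be tried. No paired analysis was possible because the groups share no animal numbers.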
